A study of Homo sapiens
Mus musculus and Homo sapiens with 2 samples.

Results

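HEK293T is a human embryonic kidney line, and the RNA read from its cells was compared here with and without iodoacetamide chemistry, in cells whose RNA carried no label. The cells were chosen from the authors' annotation of a mixture of HEK293T and NIH/3T3, a mouse fibroblast line: all cells called human in the group with the iodoacetamide method and no labelling, and all in the group with neither. These were 1584 cells, 1025 with iodoacetamide and 559 untreated, of 6307 mixture cells and 13711 cells in the 2 samples of the series. No measured value chose them.

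The assay, sci-fate, gives every RNA a well barcode and a cell barcode in fixed cells and tells newly made RNA from older RNA. Cells take up 4-thiouridine (S4U), a uridine analog that enters new RNA, and iodoacetamide then alkylates its sulfur. The altered base is copied as if it were a cytidine, so molecules with T-to-C changes can be called new. Where no S4U was given no RNA can carry that mark, and every count called new is background.

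The labels show a single culture for every group, so there is no replicate and no test, and a ratio compares these cultures. The iodoacetamide group had no S4U and had fixed cells incubated with iodoacetamide from a 100 mM stock in DMSO-containing buffer at 50 °C for 15 min. The untreated group had neither S4U nor iodoacetamide. Both had been fixed in 4% paraformaldehyde and frozen, and the protocol places a brief acid step before the iodoacetamide; the sources used here do not say which of the acid, DMSO and heating steps the untreated cells also went through, so these steps and the alkylation cannot be told apart. A second pair of HEK293T cultures was set beside the first: 913 cells with 200 µM S4U for 6 h and iodoacetamide, and 455 cells with S4U only. NIH/3T3 cells without S4U, 559 with iodoacetamide and 1045 untreated, had shared the wells of the first pair. None of these cells is counted in the first pair, so their ratios are separate measurements on shared plates and library steps. NIH/3T3 cells with S4U, 425 with iodoacetamide and 1060 without, are given for intron reads alone.

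The human counts summed to 9631814 with iodoacetamide and 6414424 untreated. All 12 HEK293T marker genes were detected in both cultures, at 3059 and 3032 CPM (counts per 1000000 counts), and the 10 markers of A549, the lung line of the other sample, had 16 and 6 counts. No cell barcode was listed more than once. None of the 362 barcodes of the first, well-level barcoding occurred in more than 1 group, so well and treatment cannot be told apart. Intervals below are exact 95% intervals and cover counting error only.

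Cells of the treated culture were recovered in another mix of species. Of all 1627 cells with iodoacetamide alone, 63.0% were human (Clopper-Pearson interval 60.6 to 65.4), against 34.0% of 1646 untreated cells (31.7 to 36.3). That is 1.83 and 0.535 human cells per mouse cell. In the pair with S4U the same shares were 66.0% of 1384 and 29.4% of 1550 cells. Cells of both species, which are doublets, were alike at 2.64% and 2.55%. The numbers of each line put into the wells are not stated in the labels.

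HEK293T cells held fewer counts after iodoacetamide. The median cell had 8519 whole counts (quartiles 5572 and 12108), against 10541 (7129 and 14576.5) in the untreated culture, a ratio of 0.808. With S4U the medians were 6673 and 9381, a ratio of 0.711. The mouse cells in the same wells as the first pair had 7151 and 7938, a ratio of 0.901. Each pair thus had fewer counts per cell with iodoacetamide, while the middle ranges of cells overlapped widely. Whether fewer molecules survived or fewer were captured was not measured.

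In HEK293T, intron reads were lower by more than exon reads. Median exon reads per HEK293T cell were 6286 with iodoacetamide and 7467 untreated (ratio 0.842), and median intron reads were 2198 and 3071 (ratio 0.716). Introns, which come mostly from unspliced RNA in the nucleus, were 27.9% of exon and intron reads with iodoacetamide (27.89 to 27.95) and 31.3% without (31.29 to 31.36), 3.41 percentage points lower. In the S4U pair the share was 31.7% against 36.0%, 4.30 points lower. In NIH/3T3 it was 6.68% against 7.90%. The order turned in NIH/3T3 with S4U, where the ratio of median exon reads was 0.883 and that of intron reads 0.940; the pooled intron share there was 9.38% against 9.52%, and the median cell had 8.08% against 7.91%. Reads in neither class were nearly the same in unlabelled HEK293T, at 8.84% and 9.08%.

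In unlabelled HEK293T the number of different genes seen at equal depth hardly moved. Without thinning the cells showed a median of 4368 genes with iodoacetamide and 4954 without. Thinned to 2000 counts each, which left out 33 and 8 shallower cells, they showed 1567 (quartiles 1540.75 and 1589) and 1578 (1554 and 1600) genes, a ratio of 0.993. The ratio was 0.981 in HEK293T with S4U and 0.948 in NIH/3T3 without S4U, so it was below 1 in each pair. At equal counts the treated unlabelled HEK293T cells covered nearly as many genes as the untreated ones. RNA from the other species was also low in both: mouse counts were 0.396% of the human cells' counts with iodoacetamide (0.392 to 0.3995) and 0.428% without (0.423 to 0.433). The median cell reversed that order, at 0.383% and 0.357%, so no direction is read from it.

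**Figure D1:**
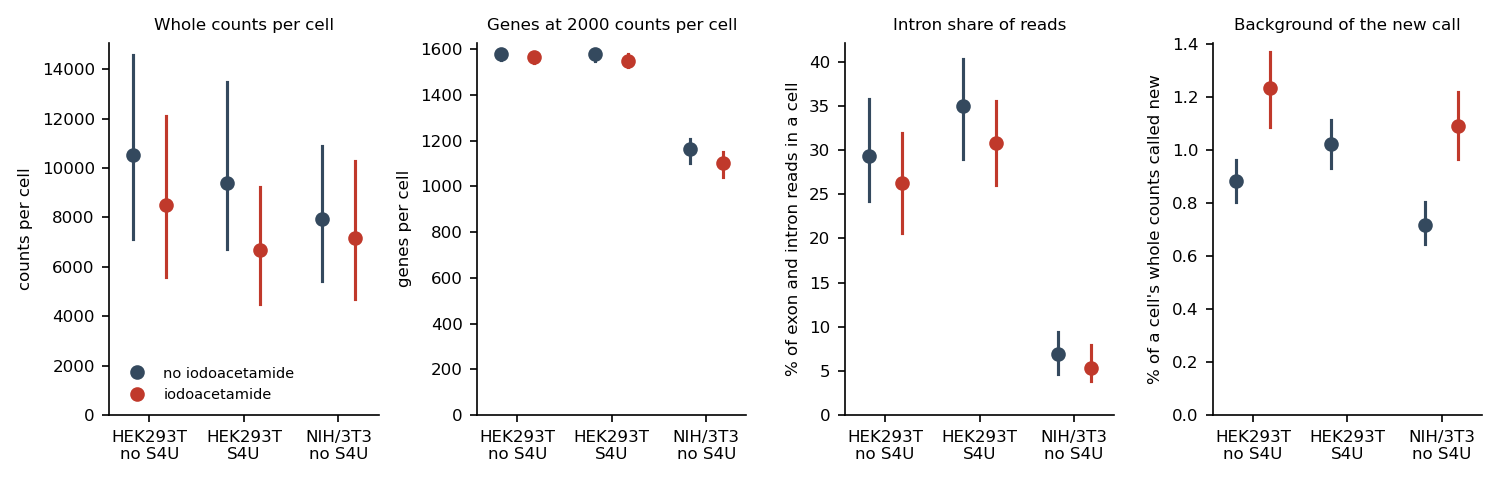
Points are median cells and bars the quartiles over cells, for whole counts, genes at 2000 counts, the intron share of reads and the share of counts called new, in cultures without (dark) and with (red) iodoacetamide. Counts and intron share are lower with iodoacetamide in all 3 pairs, genes at equal depth lie close together in HEK293T, and the background of the new call is higher; the culture with both S4U and iodoacetamide is left out of the last panel because its new counts are signal.

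The new call had a higher background after iodoacetamide in cells that had been given no S4U. In HEK293T 119574 of 9631814 counts were called new, 1.24% (1.234 to 1.248), against 56934 of 6414424 in the untreated culture, 0.888% (0.880 to 0.895). The ratio was 1.40. The median cell had 1.23% (quartiles 1.09 and 1.37) with iodoacetamide and 0.882% (0.803 and 0.963) without, so the middle ranges of cells did not overlap. Cells with S4U but no iodoacetamide had 1.02%, between the other backgrounds. The mouse cells of the same wells had 1.08% and 0.728%, a rise of 0.357 points against 0.354 points in HEK293T.

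Exon counts called new were 1.103% with iodoacetamide and 0.707% without, a difference of 0.396 points. Intron counts called new were 1.61% and 1.29%, a difference of 0.321 points. Introns thus had the higher background in both cultures, and exons the larger rise. Against the labelled HEK293T culture, where 54.7% of counts were called new, both backgrounds are small.

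Wells give the spread within a culture, though they divide 1 culture and are not replicates. Among wells with 5 or more HEK293T cells, the background ran from 0.768% to 1.48% in 89 iodoacetamide wells (median 1.25%) and from 0.733% to 1.04% in 62 untreated wells (median 0.882%). Of the iodoacetamide wells, 78 were above the highest untreated well. The intron share overlapped more, with 12 of 89 iodoacetamide wells above the untreated median of 31.1%. For counts per cell, 18 of 89 lay above the untreated median of 10928.8.

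Few genes differed by 1.5-fold in their share of the counts. A gene's share was expressed as CPM of a culture's human counts and compared over the 10052 genes with 200 or more counts in both cultures together, which hold 96.9% of the counts. In all, 17 genes were 1.5-fold or more higher with iodoacetamide, 0.169% of those compared, and 28 were 1.5-fold or more lower, 0.279%. The fold was above 1 for 4396 genes, 43.7%, and the median log2 ratio was -0.02. The middle 90% of genes lay between -0.30 and 0.22 on the log2 scale. Scaling by edgeR's trimmed mean of M values in place of total counts turned the split of 17 higher and 28 lower into 24 and 19. Giving every cell the same weight raised the lower genes to 49, and leaving out the cells with the fewest and most counts raised them to 55.

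In genes with few counts, counting error made up a large part of the scatter. For 2765 genes of 200 to 500 counts the SD of the log2 ratio was 0.21, where counting alone gives 0.16, and 35 of the 45 genes past 1.5-fold were among them. For 444 genes with over 5000 counts the SD was 0.13 against 0.03 from counting. In both classes the genes thus differed between the cultures by more than counting alone gives. Of the 444 genes with the most counts only 1, LINC00486, passed the fold. On the higher side SETMAR lay just past the fold at 1.502 and ZNF845 just short of it at 1.49. On the lower side RUNX1T1 lay past it at 0.662 and C1orf132 short of it at 0.669.

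**Figure D2:**
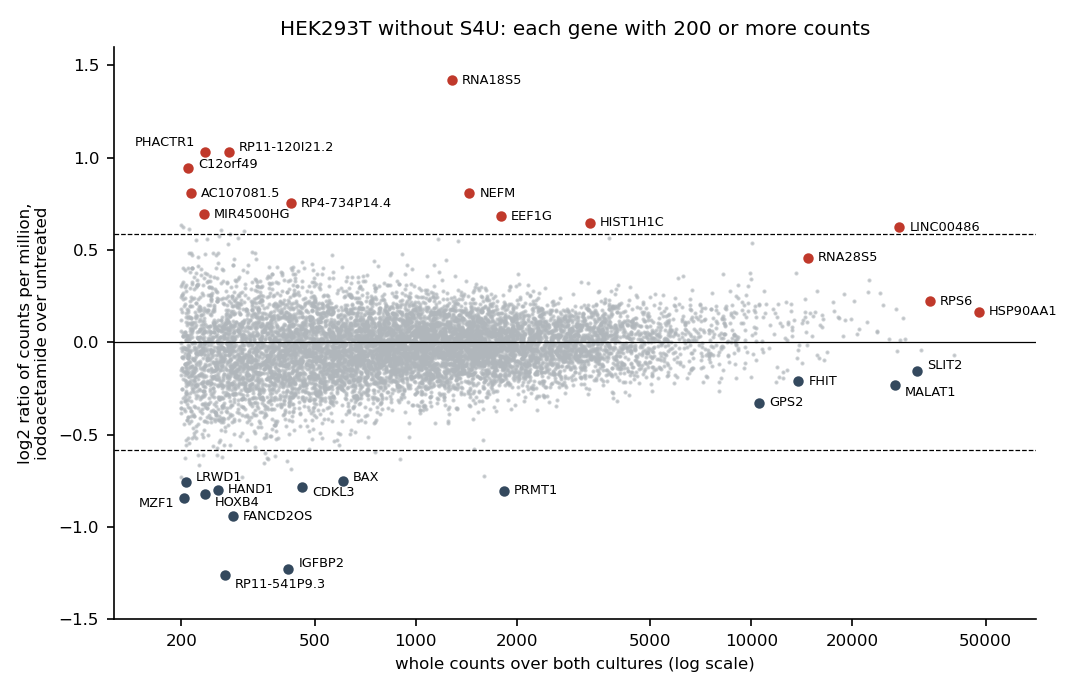
Each point is a gene, placed by its counts over both unlabelled HEK293T cultures (log scale) and by its log2 ratio of CPM, iodoacetamide over untreated; dashed lines mark 1.5-fold and the named genes are coloured. The cloud narrows from left to right, and LINC00486 is the 1 gene over 5000 counts beyond a dashed line.

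The S4U pair gave ratios of the same contrast in other cells. Across 9151 genes with 200 or more counts in each pair, the log2 ratios of the pairs had a Pearson r of 0.31 and a Spearman rho of 0.29, and across 242 genes with 5000 or more counts they had 0.83 and 0.80. These are descriptions across genes, which are not independent and share the library steps. Of the 17 higher genes, 12 were above 1 in the S4U pair, where 38.1% of all 10052 genes were, and 7 were again 1.5-fold higher, against 0.458% of all genes. Of the 28 lower genes, 21 were below 1, where 61.9% of all genes were, and 9 were again 1.5-fold lower, against 1.71%. The count below 1 is thus near the share over all genes.

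**Figure D3:**
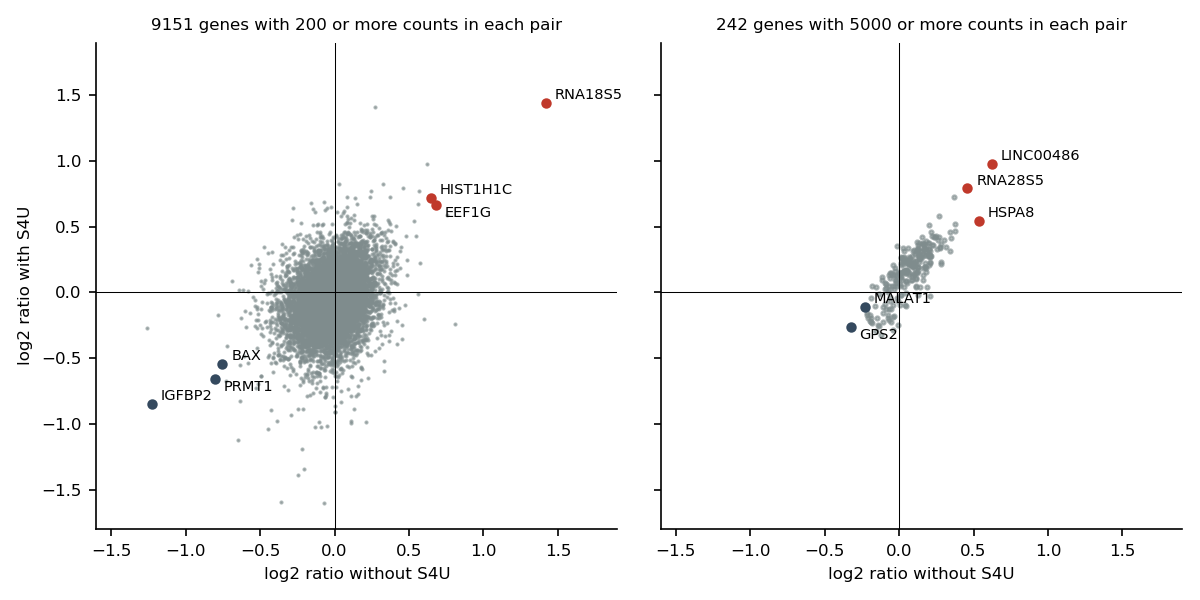
The log2 ratio of each gene with over without iodoacetamide in HEK293T without S4U (horizontal) and with S4U (vertical), for genes with 200 or more counts in each pair (left) and 5000 or more (right). The right cloud is drawn out along the diagonal, with LINC00486, RNA28S5 and HSPA8 at its upper end and MALAT1 and GPS2 at its lower end.

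Of the annotation's gene types with genes past the minimum, ribosomal RNA had the highest summed ratio. Reverse transcription started from an oligo-dT primer, per the labels' protocols, and mature ribosomal RNA carries no long poly(A) tail. The class summed to a ratio of 1.43 (1.39 to 1.48), and to 1.78 in the S4U pair. RNA18S5, the RNA of the small ribosomal subunit, had 106 CPM with iodoacetamide and 39.8 CPM untreated, a ratio of 2.68 (2.33 to 3.08). In the S4U pair it had 122 and 44.8 CPM, a ratio of 2.71. RNA28S5, the RNA of the large subunit, had 1032 and 752 CPM (ratio 1.37, 1.33 to 1.42), and 1189 and 688 CPM with S4U. The genes of both are present in many copies, so which copy the reads came from is uncertain.

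LINC00486, a long intergenic noncoding RNA, had 2002 CPM with iodoacetamide and 1299 CPM untreated, a ratio of 1.54 (1.502 to 1.58). The S4U pair had 2758 and 1399 CPM, a ratio of 1.97. Its level was spread over the wells: 86 of 89 iodoacetamide wells were above the untreated median of 1222 CPM and 55 were above the highest untreated well. Of its counts 0.228% and 0.180% were called new in the unlabelled pair, which is background. In the culture with S4U and iodoacetamide it had only 0.304%, where 54.7% of all counts were called new. The reason was not tested.

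Of the gene lists with members past 200 counts, replication-dependent histones had the highest median ratio, 1.47, and the highest summed ratio. Their messages mostly end in a stem-loop without a poly(A) tail, and 6 of the 51 listed genes reached 200 counts. Summed, all listed members made 0.113% of counts with iodoacetamide and 0.0870% without, a ratio of 1.29 (1.25 to 1.34), with 1.40 in the S4U pair and 1.29 in NIH/3T3. Small RNAs without a poly(A) tail, none of which reached 200 counts, summed to a ratio of 1.37 (1.099 to 1.72) from 249 and 121 counts. HIST1H1C, the linker histone H1.2, had 240 and 153 CPM, a ratio of 1.57 (1.45 to 1.69), with 1.64 in the S4U pair and 1.42 for its mouse namesake. HIST1H1E, linker histone H1.4, had 270 and 182 CPM (1.48, and 1.71 with S4U). HIST1H4C, a core histone H4 gene, had 192 and 174 CPM (1.103), and HIST1H2BK, an H2B gene, had 137 and 140 CPM (0.978). HIST1H1C was thus the only 1 of the 6 genes past the minimum that was 1.5-fold higher, where 0.169% of all genes were. Leaving out the cells with the fewest and most counts put it at 1.44, and an equal weight per cell at 1.46, under the fold. Histone genes are near-identical copies, so their reads can be shared between them.

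Cytosolic ribosomal protein messages, short and abundant transcripts of the translation machinery, were higher together by a small amount. Of 78 listed genes past the minimum none passed 1.5-fold, where 0.169% of all genes did, and 69 had a ratio above 1, which is 88.5% against 43.7% of all genes. Among the 444 genes with 5000 or more counts, 64.6% were above 1 and the median ratio was 1.03. The median ratio of the ribosomal protein genes was 1.09. They summed to 4.83% of counts with iodoacetamide and 4.37% without, a ratio of 1.104 (1.099 to 1.110). With S4U 77 of 78 were above 1, against 38.1% of all genes, and the summed ratio was 1.24. In NIH/3T3 it was 1.01, and 0.981 when mitochondrial counts stay in the mouse total, so its side of 1 depended on that total.

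Single ribosomal protein genes spanned a narrow range. RPL4 had 931 CPM with iodoacetamide and 718 CPM untreated (ratio 1.296), and RPL12 had 564 and 436 CPM (1.29). RPLP1, of the acidic stalk, had 1611 and 1341 CPM (1.20). RPS6, whose protein is phosphorylated downstream of growth signals, had 2246 and 1926 CPM (1.17). At the other end RPL39 had 731 and 835 CPM (0.876) and RPS9 had 305 and 334 CPM (0.911). Processed pseudogenes share most of these sequences, so the counting can divide their reads. Over wells, 77 of 89 iodoacetamide wells lay above the untreated median share of 4.33%, but none lay above the highest untreated well.

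EEF1G, a subunit of the elongation factor that brings aminoacyl-tRNA to the ribosome, was past the fold: 132 CPM with iodoacetamide and 82.0 CPM untreated, a ratio of 1.60 (1.45 to 1.78). The S4U pair had 165 and 104 CPM, a ratio of 1.58. The mouse namesake had a ratio of 0.981.

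Heat shock genes, which code for chaperones that hold and refold proteins, had a summed ratio of 1.09 (1.077 to 1.098), with 1.12 in the S4U pair and 1.03 in NIH/3T3, the last of which became 0.998 with mitochondrial counts in the total. None of 17 passed 1.5-fold, where 0.169% of all genes were higher and 0.279% lower, and 11 were above 1, where 43.7% of all genes were. That is 64.7% of the list, near the 64.6% above 1 among the 444 genes with 5000 or more counts. HSPA8, the constitutive cytosolic Hsp70, had 713 CPM with iodoacetamide and 492 CPM untreated, a ratio of 1.45 (1.39 to 1.51), and 637 and 437 CPM in the S4U pair. HSP90AA1, the inducible cytosolic Hsp90, had 3112 and 2773 CPM (1.12), and HSPA4, an Hsp110-type cochaperone, 463 and 402 CPM (1.15). DNAJB1, an Hsp40 cochaperone that heat strongly induces, had a ratio of 0.916.

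Messages for endoplasmic reticulum chaperones and the unfolded protein response had a summed ratio of 0.967 (0.953 to 0.982) in the first pair. None of 22 passed the fold, where 0.169% of all genes were higher and 0.279% lower, and 6 were above 1, where 43.7% of all genes were. With S4U the sum was 1.08. MANF, a secreted protein of stressed endoplasmic reticulum, had 107 and 138 CPM (ratio 0.779), and ATF4, a transcription factor of the integrated stress response, had 302 and 253 CPM (1.19). The list had no single direction across the pairs.

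Long RNAs listed here as nuclear-retained differed little as a list, and its sum leaned on MALAT1. The summed share of the 15 listed had a ratio of 0.907 (0.893 to 0.921), with 0.919 in the S4U pair and 0.906 in NIH/3T3. Without MALAT1 the sum had 0.951 (0.931 to 0.971). The median of the 12 past the minimum was 0.971, against 0.984 for all genes. Of these 12, 4 were above 1, near the 43.7% of all genes, and none passed the fold, where 0.169% of all genes were higher and 0.279% lower. MALAT1, an abundant RNA of nuclear speckles, had 1562 CPM with iodoacetamide and 1836 CPM untreated, a ratio of 0.851 (0.831 to 0.872), with 0.926 in the S4U pair and 0.927 in mouse. KCNQ1OT1, an antisense RNA that silences its imprinted region, had 111 and 141 CPM (0.790). NEAT1, which builds paraspeckles, had 290 and 294 CPM (0.984). The highest listed members went the other way, OIP5-AS1 at 1.116 and LINC00657 at 1.04. The median of the list changed sign under 1 alternative scaling, edgeR's factors, where it was 0.00 on the log2 scale.

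Genes of great span were lower on balance, and these hold much intron sequence. Span was taken from the GENCODE release 29 annotation, which matched 9924 of 10052 genes, 98.7%. In 4 equal classes, the genes with the shortest spans, median 8.98 kb, had a median ratio of 0.997, and those with the longest, median 174 kb, had 0.952. With S4U these classes had 1.01 and 0.915. Among the longest class, 36 of 117 genes with 5000 or more counts were above 1, 30.8%, against 287 of all 444 genes with such counts, 64.6%. SLIT2, a secreted guidance ligand, had 1853 CPM with iodoacetamide and 2068 CPM untreated (0.896), and FHIT, a nucleotide hydrolase gene at a fragile site, had 809 and 937 CPM (0.863). Others of that class went the other way, among them LINC00486 at 1.54 and PGK1, a glycolytic kinase, with 317 and 286 CPM (1.106). Outside that class, GPS2, a subunit of the NCoR corepressor complex with a span of 4.24 kb, had 596 and 748 CPM (0.797, and 0.832 with S4U). GPS2 overlaps EIF5A on the opposite strand, and the use of strand in the counting is not stated in the labels.

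Genes with much new RNA leaned the same way. With genes ranked by the share of their counts called new in the labelled HEK293T culture and cut into 4 classes, the lowest class had a median ratio of 1.01 in the unlabelled pair and the highest 0.973. By sequence composition the order differed between the pairs, a difference that was not tested. In the first pair the class with the least G and C in the transcript had a median ratio of 1.01 and the class with the most 0.955, while with S4U they had 0.932 and 0.984.

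Among single genes on the lower side, PRMT1, the main enzyme that places asymmetric dimethyl-arginine on proteins, was the best measured. It had 87.9 CPM with iodoacetamide and 154 CPM untreated, a ratio of 0.572 (0.521 to 0.628). The S4U pair had 102 and 161 CPM, a ratio of 0.634, and mouse Prmt1 had a ratio of 0.464 (0.401 to 0.535). BAX, whose protein opens the mitochondrial outer membrane in apoptosis, had 29.7 and 50.0 CPM, a ratio of 0.593 (0.504 to 0.698), with 0.686 in the S4U pair and 0.526 (0.437 to 0.630) in mouse. Both genes were lower in all 3 pairs.

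BAK1, which codes for the partner of BAX in opening that membrane, had 11.9 and 18.2 CPM (0.655) and 11.1 and 24.1 CPM with S4U. RNF167, a ubiquitin ligase of endosomes and lysosomes, had 45.7 and 70.9 CPM (0.644) and 44.9 and 79.5 CPM with S4U. GANAB, the catalytic subunit of glucosidase II, which trims glycans in the endoplasmic reticulum, had 79.0 and 131 CPM (0.606) and a ratio of 0.753 with S4U. These 3 were picked from the 28 lower genes after their values were seen. Only 1 of 11 listed p53 targets past the minimum was 1.5-fold lower, BAX itself, where 0.279% of all genes were.

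IGFBP2, which binds insulin-like growth factors, had 16.9 CPM with iodoacetamide and 39.6 CPM untreated, a ratio of 0.427 (0.349 to 0.522), and 23.7 and 42.6 CPM in the S4U pair (0.556). HAND1, a basic helix-loop-helix transcription factor, had 12.4 and 21.5 CPM (0.574) and 0.544 with S4U. FANCD2OS, which lies opposite the Fanconi anaemia gene FANCD2, had 13.0 and 24.9 CPM (0.520), and 0.627 with S4U. MZF1, a zinc finger factor with an antisense partner, had 9.66 and 17.3 CPM (0.558), and 0.650 with S4U. For FANCD2OS and MZF1 the opposite strand cannot be told apart.

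Other genes at the lower end were less alike in the pairs. RP11-541P9.3, an antisense RNA, had the lowest ratio, 0.417 (0.323 to 0.536), from 104 and 166 counts, and 0.830 with S4U. With an equal weight per cell it had 0.660, above the 0.486 of IGFBP2, and so was no longer the lowest. HOXB4, a homeobox factor, had 0.566 and 0.806. CDKL3, a kinase gene, had 0.582 and 0.889, and LRWD1, which codes for a partner of the origin recognition complex, had 0.593 and 0.985. For these 4 genes the second pair was below 1 but short of 1.5-fold lower.

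Of 4 other genes at the higher end, PHACTR1 and RP4-734P14.4 were past the fold in both pairs and the other two in the first alone. PHACTR1, an actin and phosphatase regulator that overlaps TBC1D7 on the opposite strand, had 18.5 CPM with iodoacetamide and 9.04 CPM untreated (ratio 2.04, 1.51 to 2.80) and 1.87 with S4U, but its mouse namesake had 0.866, and an equal weight per cell put it at 1.43. RP4-734P14.4, a model that overlaps SNRPB and ZNF343 on the same strand, had 31.6 and 18.7 CPM (1.69) and 1.501 with S4U. RP11-120I21.2, a noncoding RNA, had 21.7 and 10.6 CPM (2.05) and 1.12 with S4U. AC107081.5, antisense to the chaperonin gene CCT4, had 1.75 and 1.305 with S4U.

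NEFM, the medium neurofilament and 1 of the HEK293T markers, had 108 CPM with iodoacetamide and 62.0 CPM untreated, a ratio of 1.75 (1.56 to 1.97). In the S4U pair it had 65.3 and 77.3 CPM, a ratio of 0.845. Leaving out the cells with the fewest and most counts put the first value at 1.41, and an equal weight per cell at 1.45. C12orf49, a regulator of the SREBP lipid pathway, had 1.92 and 0.918, and MIR4500HG, a microRNA host gene, 1.62 and 0.801. These 3 genes were past the fold in the first pair and had ratios below 1 in the second. The second interval lay below 1 for NEFM (0.735 to 0.972). It held 1 for C12orf49 (0.669 to 1.26) and MIR4500HG (0.573 to 1.12). MIR4500HG also came under the fold with an equal weight per cell, at 1.46, and without the cells with the fewest and most counts, at 1.45.

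Housekeeping and cell cycle lists held close to 1 without S4U. None of the 46 S-phase genes past the minimum, 47 genes of G2 and mitosis or 31 proteasome genes passed 1.5-fold in either direction. The same held for 33 splicing factors, 50 mitochondrial ribosomal proteins and 64 respiratory chain genes. Over all genes 0.169% were higher and 0.279% lower, so these empty counts are near the share over all genes. S-phase genes summed to a ratio of 1.05 (1.04 to 1.07) and those of G2 and mitosis to 1.03 (1.02 to 1.04). With S4U, G2 and mitosis genes summed to 0.926, with 7 of 47 above 1, where 38.1% of all genes were. UBE2C, the ubiquitin-conjugating enzyme of the anaphase-promoting complex, had 74.3 and 95.4 CPM in the first pair (0.779) and 37.7 and 114 CPM in the second (0.331). CENPF, a kinetochore protein, had 1034 and 974 CPM (1.06) and a ratio of 1.07 with S4U.

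Metabolic lists were near 1 in the first pair and higher in the second. Glycolysis genes summed to 0.988 (0.978 to 0.999) without S4U and 1.14 with it, and respiratory chain genes to 0.985 (0.975 to 0.995) and 1.13. Both medians changed sign with edgeR's factors. Ferritin messages were higher in both pairs: FTH1 had 137 and 110 CPM (1.25) and FTL 266 and 218 CPM (1.22), with 1.32 and 1.35 under S4U. They are the highest of 18 listed NRF2 targets past the minimum, whose median ratio was 1.00, with GCLC, which makes glutathione's precursor, at 0.879 and AKR1B1, aldose reductase, at 0.881. ACTB, cytoplasmic actin, had 447 and 368 CPM (1.22) and 1.16 with S4U, the highest of 23 actin cytoskeleton genes. Their median ratio was 1.00, and ARPC1B, of the Arp2/3 complex, had 0.788, TAGLN2, a transgelin, 0.812 and PFN1, profilin, 0.936. KLF10, an early response transcription factor, was high at 1.45 in the first pair and 0.857 in the second. Of 245 ZNF zinc finger genes past the minimum 101 were above 1, which is 41.2% against 43.7% of all genes, with a median ratio of 0.966. ZNF780A was past the fold upward, at 1.52, and had 0.869 with S4U.

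**Figure D4:**
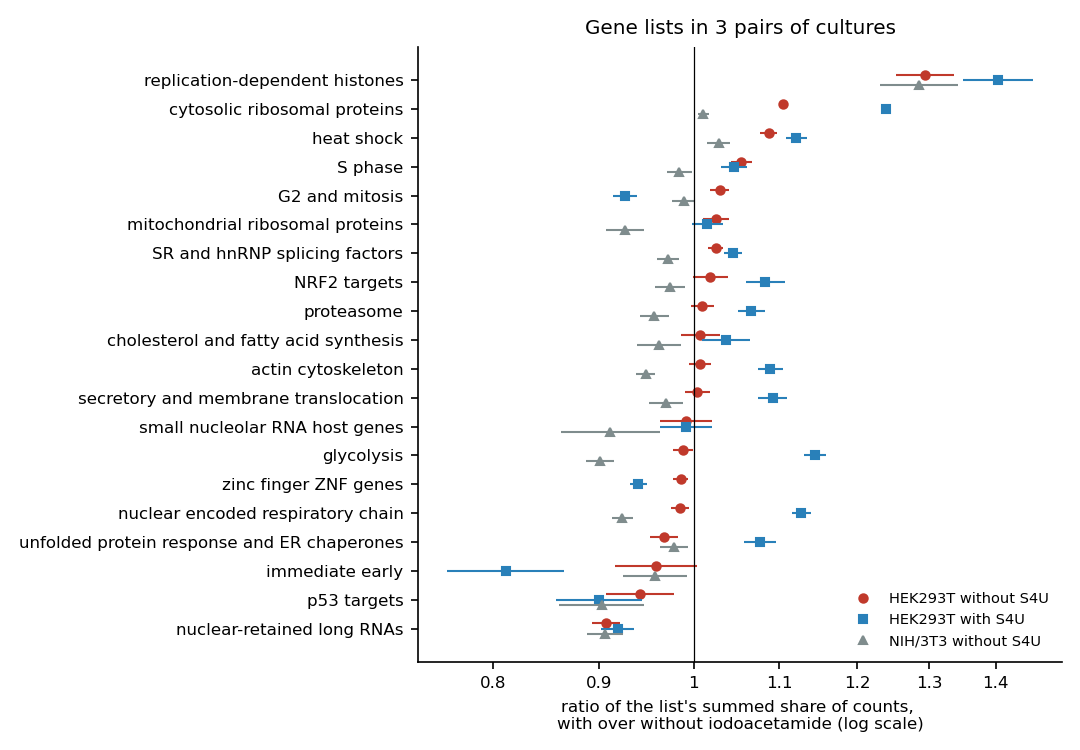
The ratio of each list's summed share of counts with over without iodoacetamide (log scale), in HEK293T without S4U (circles), HEK293T with S4U (squares) and NIH/3T3 without S4U (triangles); bars are exact 95% intervals for counting error. Histones lie right of 1 and nuclear-retained RNAs left of 1 in all 3 pairs, while glycolysis and respiratory chain genes lie left of 1 without S4U and right of it with S4U in HEK293T.

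The background of the new call was also read gene by gene, in the 7336 genes with 200 or more counts in each culture. The background was higher with iodoacetamide for 5511 genes, 75.1%, and for 66 of the 68 genes with 5000 or more counts in each. The median gene had 1.20% with iodoacetamide and 0.804% untreated. Between genes the order was partly shared, with a Spearman rho of 0.34 over all of them and 0.78 over those 68. A background above 5% was found in 12 genes with iodoacetamide and in 9 without, and 7 genes were in both sets.

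The genes of highest background named in this paragraph had it with or without the chemistry. RPL23AP2, a pseudogene of a ribosomal protein gene, had 81 of 472 counts called new with iodoacetamide, 17.2% (13.9 to 20.9), and 41 of 264 untreated, 15.5% (11.4 to 20.5). With S4U only it had 15.2%. COX6A1, a subunit of cytochrome c oxidase, had 157 of 1484, 10.6% (9.06 to 12.3), and 87 of 1113, 7.82% (6.31 to 9.55). CNTNAP2, a neurexin-family adhesion protein, had 12.6% and 9.13%. NOC3L, a nucleolar factor of ribosome assembly, had 8.09% and 9.99%, the lower value with iodoacetamide. For each of these genes the intervals of the cultures overlapped.

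The labelled culture, with both S4U and iodoacetamide, gives the level to set such a background against. RPL23AP2 had 19.1% of counts called new there, little above its 17.2% without S4U. TSPO, a cholesterol-binding protein of the outer mitochondrial membrane, had 12.3% against 5.49%. NOC3L, in contrast, had 76.0% against 8.09%, and AGPS, an enzyme of ether lipid synthesis, 55.3% against 5.17%. PLEKHJ1, POLR2J3 and CARHSP1 lay between, with 37.0%, 36.8% and 50.8% against 7.75%, 6.04% and 5.82%. POLR2J3 has near-identical copies, so its reads are uncertain.

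The genes with the largest differences had few counts. KLHL18, an adaptor of a ubiquitin ligase, had 39 of 658 counts called new with iodoacetamide, 5.93% (4.25 to 8.01). Untreated it had 10 of 479, 2.09% (1.01 to 3.81). These intervals did not overlap, but KLHL18 was picked for its large difference, so the gap carries no weight. In cells with S4U only KLHL18 had 2.88%, and that interval, which reached 4.97%, overlapped the one with iodoacetamide. NUDT12, a nucleotide hydrolase, had 4.56% (2.72 to 7.11), and 1 of 221 counts, 0.452% (0.0115 to 2.495), untreated. CTTNBP2, a cortactin-binding protein, had 4.30% (2.42 to 6.99) and 0.457% (0.0116 to 2.52), and SPATA17 had 4.26% (2.29 to 7.18) and 0.493% (0.0125 to 2.71). With S4U only these last 3 genes had 2.90%, 3.68% and 4.23%, so their untreated values are the low ones in these cultures.

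**Figure D5:**
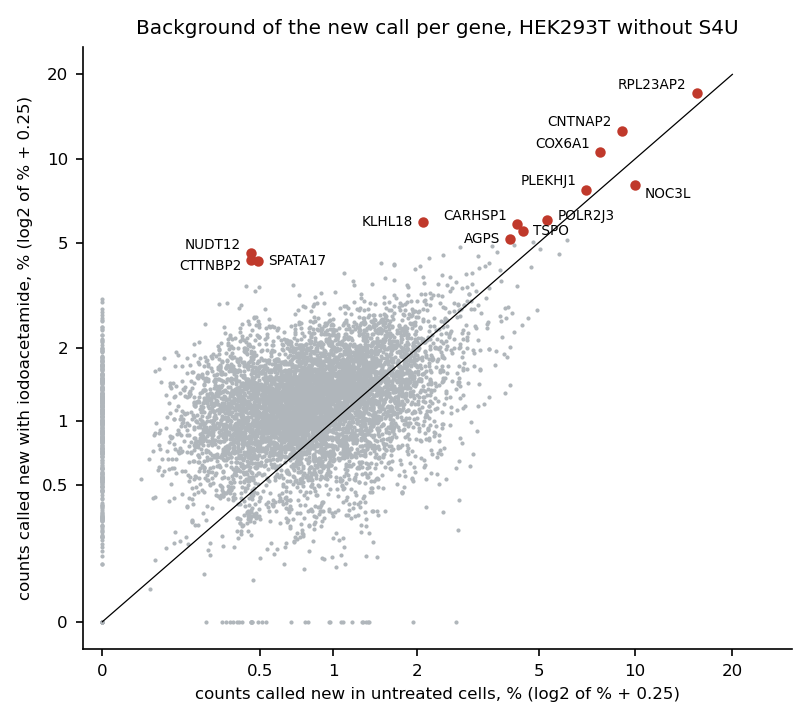
Each point is a gene, placed by the percent of its counts called new in untreated (horizontal) and iodoacetamide (vertical) HEK293T cells without S4U, both on a scale of log2 of the percent plus 0.25; the line marks equal values. Most points lie above the line, 75.1% of genes. The named genes with the highest values, from RPL23AP2 at 17.2% down to AGPS at 5.17%, mostly lie near it. KLHL18, at 5.93% with iodoacetamide and 2.09% untreated, lies farther above it.

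Longer genes had more background in both cultures. The class of genes with the shortest spans had 1.07% of counts called new with iodoacetamide and 0.699% untreated, and the class with the longest spans 1.42% and 1.06%. By gene type, protein-coding genes had 1.23% and 0.875%, pseudogenes 2.00% and 1.64%, and antisense genes 1.66% and 1.27%. Ribosomal RNA had 1.16% and 0.507%. Each of these types was higher with iodoacetamide.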

How the data were processed

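Single-cell RNA was measured by sci-fate in a mixture of HEK293T and NIH/3T3 cells. Both deposited matrices, for all RNA and for RNA called new, give unnormalized counts, and the deposited annotation gives exon and intron reads as counts, per the file headers, with the authors' fraction of new reads and their species and treatment calls. The submitters' processing notes name STAR 2.5.2b, Trim Galore 0.4.1, Picard 1.105 and SAMtools 1.3, and the builds hg19 and mm10. The handling of duplicates, the use of strand and the new call are not given in the labels or headers used here.

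Counts were summed over the cells of each culture with Python 3.11.15, numpy 2.4.6, scipy 1.17.1 and pandas 2.3.3, and divided by the total of human genes, or of mouse genes outside the mitochondrial ones, since the 15 human mitochondrial genes listed hold 0 counts. That choice was made after seeing the data and raises no human value. There was 1 culture a side, so no test was made. Totals were 9631814 and 6414424 counts; mouse-only and both-species cells and 54 human cells with no group stayed out of the comparison. No doublet caller was run beyond the authors' species call, so doublets of 2 human cells remain. Thinning used a fixed seed. The ratio and its interval were tested on simulated data. Alternatives used edgeR 4.0.16 in R 4.3.3, for its scaling factors only.

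The rule for named genes took the 10 highest and 10 lowest ratios, the 5 largest rises and falls in CPM, up to 6 members of each of 25 lists (2 highest, 2 lowest, 2 with most counts), and for the background the 10 highest with iodoacetamide, 5 highest untreated and 5 largest differences; 2 genes the rule names are not reported here. BAK1, RNF167 and GANAB, named after their values were seen, and SETMAR, RUNX1T1 and C1orf132, which lie next to the fold limit, are outside it. Members, lists and comparisons were chosen with earlier results of these data known.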

Additional observations from a re-analysis of the deposited data

Results flagged for a closer look

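Several results pointed one way in one pair of cultures and the other way in another; with 1 culture a side none of these differences was tested. Between HEK293T without and with S4U, the summed ratio with over without iodoacetamide was 0.985 and 1.13 for nuclear encoded respiratory chain genes, 0.988 and 1.14 for glycolysis, 0.967 and 1.08 for the unfolded protein response and endoplasmic reticulum chaperones, and 1.03 and 0.926 for G2 and mitosis. NEFM had a ratio of 1.75 without S4U and 0.845 with it.

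Between HEK293T and NIH/3T3, both without S4U, the summed ratio was 1.03 and 0.927 for mitochondrial ribosomal proteins, 1.05 and 0.984 for S-phase genes, and 1.03 and 0.972 for SR and hnRNP splicing factors. PHACTR1 had 2.04 in HEK293T and its mouse namesake 0.866.

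The share of counts from the other species was lower with iodoacetamide in unlabelled HEK293T but higher in other pairs: 0.697% against 0.365% in HEK293T with S4U, and 0.546% against 0.441% in NIH/3T3 without S4U.

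Outside the comparison, the 54 human cells that the annotation gives no treatment group held 21802 counts, of which 18.8% were called new (exact 95% interval 18.2 to 19.3), above the 0.888% of untreated cells. The median such cell had 2.82% and the highest 82.3%.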

How the results depend on the processing

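The direction of counts per cell, genes per cell, intron share and background held under the settings run. The ratio of median counts, 0.808, was 0.819 for means, 0.807 with mouse genes and 0.822 in cells under 1% mouse counts. The ratio of genes per cell, 0.993 at 2000 counts, was 0.992 at 4000 and 0.882 without thinning. The intron difference of -3.41 points was -3.09 in the median cell and -3.51 without the 10% of cells with the fewest and the 10% with the most counts. Mouse counts in human cells, -0.0320 points pooled, reversed to 0.0256 in the median cell.

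The numbers of genes past 1.5-fold, 17 higher and 28 lower, depend on the minimum: 58 and 114 at 100 counts, 6 and 9 at 400, and 2174 and 4490 with at least 1 count in each culture. Lower genes were 49 with every cell weighted the same, of which 20 were among the 28, and 55 without the cells with the fewest and most counts, of which 22 were. Higher genes were 17 and 21 under these settings, of which 10 and 12 were among the 17. Leaving out mitochondrial genes changes nothing, as they hold no counts. Of 180 ratios of named genes under alternatives, 18 left their counting interval and none crossed 1 from past the fold. The mouse total with mitochondrial genes lowers each NIH/3T3 ratio by 2.92%. No paired analysis was possible because each group is 1 culture, and no replicate could be left out. Depth limits genes near 200 counts most.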
